A study of Mus musculus with 6 samples.

Results

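The genes described here encode the nuclear subunits of the oxidative phosphorylation system, taken complex by complex. They were chosen by name alone: every gene whose annotated symbol starts with Nduf, Uqcr, Cox4, Cox5, Cox6, Cox7, Cox8 or Atp5, and the genes Sdha, Sdhb, Sdhc and Sdhd. The rule found 90 of the 18193 genes on the array, 44 for complex I, 4 for complex II, 8 for complex III, 17 for complex IV and 17 for complex V. Each gene was represented by its brightest probe set over the 6 arrays. Of the 90 genes, 84 lay above the limit for low signals and were tested among 10916 genes in all. The 6 left out (Cox6b2, Cox7a1, Cox7b2, Cox8b, Ndufa4l2 and Ndufb4) had only dim probe sets. Probe sets annotated with several gene symbols were not used, so that some subunits, among them Ndufs6, Ndufa11 and Cox7b, are not analysed here, and Ndufb4 and Cox7c are represented by dim probe sets.

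The study used Ba/F3, a mouse pro-B cell line that grows in the presence of interleukin 3, made to carry NCOR1-LYN under a doxycycline-inducible promoter (Retro-X Tet-On Advanced). NCOR1-LYN joins a nuclear receptor corepressor to a SRC family tyrosine kinase. Control cells carried the same construct and received no doxycycline (3 arrays), and NCOR1-LYN cells received doxycycline (3 arrays). Each array is an Affymetrix Mouse Genome 430 2.0 array of total RNA, numbered 1 to 3 within its group. Since only the NCOR1-LYN cultures saw doxycycline, effects of the drug and of the fusion cannot be told apart. Whether the established cells were a clone or a pool is not given in the sources used here, and induction of the fusion was not checked on these arrays. The labels speak of triplicate cultures, so that p-values reflect how far these cultures' arrays varied.

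Oxidative phosphorylation takes place at the inner mitochondrial membrane. Complex I (NADH dehydrogenase) and complex II (succinate dehydrogenase) pass electrons to ubiquinone, complex III passes them on to cytochrome c, and complex IV (cytochrome c oxidase) hands them to oxygen. Complexes I, III and IV pump protons, and complex V (ATP synthase) uses the resulting gradient to make ATP. Most subunits are encoded in the nucleus, and complexes I, III, IV and V also contain subunits encoded by mitochondrial DNA.

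The signals had been scaled by the authors, and the median signal of an array ran from 54.8 to 61.9. Replicate 1 stood apart from replicates 2 and 3 in both groups, and 1423 of the 10916 genes (13%) differed by replicate number. Of 11 B lymphoid markers on the array, 3 (Cd79b, Igll1 and Pax5) lay above the limit for low signals and 8 below it. The markers below it include Cd79a, Ebf1, Vpreb1, Rag1, Rag2 and Blnk. The summed signal of all 11 was 676 to 922 in controls and 715 to 747 with NCOR1-LYN. The summed signal of 10 myeloid markers, 4 of them below the limit, was 2645, 2729 and 2679 in controls and 7580, 10309 and 10570 with NCOR1-LYN, so the groups did not overlap. Of these markers 1, Ltf, passed the test for a rise (log2 fold change 2.35, limma adjusted p = 0.0179). Most of the rise in the sum lay in Ngp (mean 822 in controls and 4439 with NCOR1-LYN) and Prtn3 (1195 and 3618). Prtn3 did not rise in pair 1 (-0.01, against 2.14 and 2.34 in pairs 2 and 3). Of the other tested myeloid markers, Mpo (0.59) and Lyz2 (0.47) had positive values and Csf1r was at -0.04. In bulk RNA, a change in the mix of cells and a change in RNA per cell cannot be told apart, and the part of these marker changes in the results below was not tested.

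No subunit gene of any complex passed the test for a change between NCOR1-LYN and control cells. In limma with Benjamini-Hochberg adjustment over all genes tested, 0 of the 84 genes passed an adjusted p of 0.05, where 9 of the 10916 genes (0.0824%) did, 6 higher and 3 lower. The replicate number was also used as a block, since replicate 1 stood apart in both groups. With it, again 0 of the 84 genes passed, against 90 of all genes (0.824%). At an unadjusted limma p of 0.05, 1 of the 84 genes passed without the block (Ndufb1), against 4.75% of all genes, and 5 passed with it (Ndufb1, Ndufs8, Uqcrq, Ndufb6 and Ndufb10), against 11.3%. Signals of the NCOR1-LYN and control arrays did not overlap for 3 genes that were higher with NCOR1-LYN (Uqcrq, Ndufb9 and Ndufa10; 5.17% of all genes) and for 3 that were lower (Ndufb1, Ndufa13 and Sdhb; 6.06%). None of these counts exceeded the share of the array as a whole.

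The median log2 fold change over the 84 genes was 0.04, with the middle 50% between -0.01 and 0.12. The median over all genes tested was -0.01, with the middle 50% between -0.14 and 0.11. Fold changes are on the log2(signal + 64) scale, where changes of dim genes come out too small. Values after ± are standard errors of the fit without the block unless marked SD, so they include differences between replicates. With the block, the standard errors of Ndufs8, Ndufb6 and Ndufb10 were 0.086, 0.097 and 0.093. These 3 genes did not pass with it either (limma adjusted p = 0.317, 0.406 and 0.423). Of the 84 genes, 57 had a positive value and 27 a negative one. Positive values were found in 5147 of all 10916 genes, and in 533 of 1030 other genes with a mean signal above 4146. These shares were not compared by a test. The sign of the median over the 84 genes depended on single arrays, since it was -0.048 without control replicate 1 and -0.026 without NCOR1-LYN replicate 3. Leaving out single arrays turned the sign of the median of every complex, which ran from -0.01 to 0.17 in complex I, -0.10 to 0.09 in II, -0.10 to 0.18 in III, -0.01 to 0.13 in IV and -0.12 to 0.15 in V. Same-numbered pairs gave medians of 0.08, -0.02 and 0.09 for pairs 1, 2 and 3. In these pairs 53, 37 and 73 of the 84 genes were higher, against 46.4, 47.1 and 51.5% of all genes. Among the 1030 other bright genes 602, 328 and 544 were higher. The change had the same sign in all 3 pairs for 24 genes that were higher with NCOR1-LYN (15.9% of all genes) and for 4 that were lower (18.9% of all genes).

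**Figure D1:**
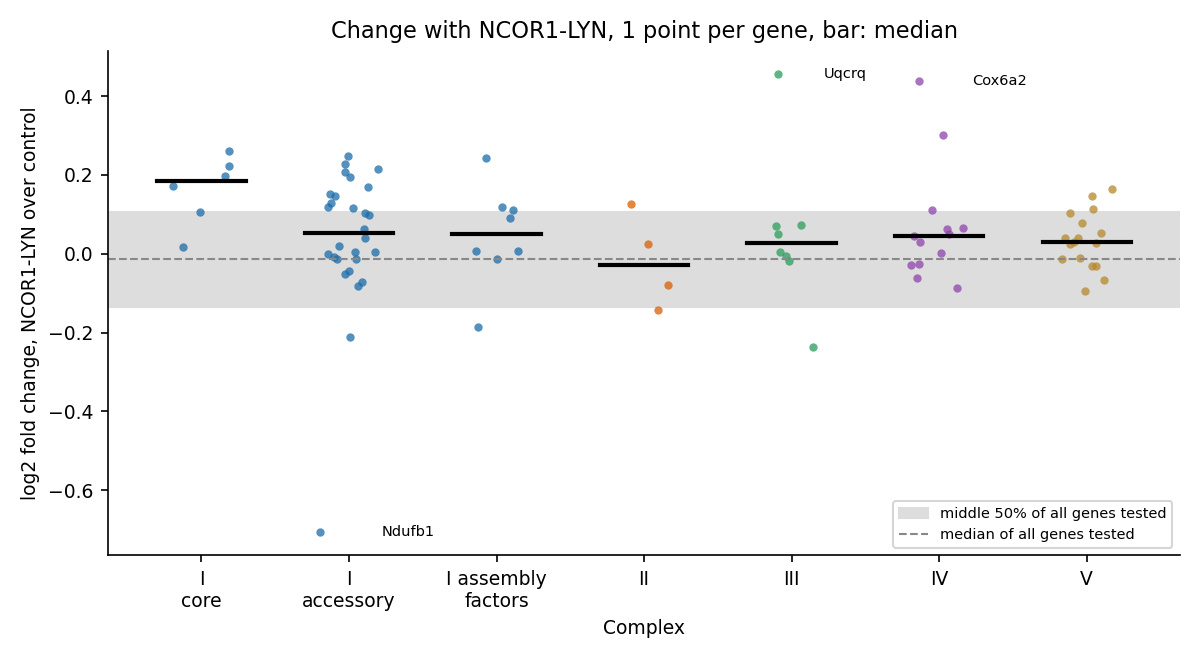
Log2 fold change of NCOR1-LYN over control for each of the 84 tested genes (vertical axis, log2(signal + 64) scale), grouped by complex and, for complex I, by class. Each point is 1 gene, bars are medians, the grey band holds the middle 50% of all genes tested and the dashed line their median of -0.01; the medians of all classes lie between -0.03 and 0.18, and Ndufb1 lies lowest at -0.71.

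Complex I was the only complex divided into classes, since the name rule also collects its assembly factors. The 6 core subunits tested, from the class that carries the flavin and iron-sulphur clusters, had a median log2 fold change of 0.18, and all 6 were positive. The median stayed positive with single arrays left out (0.05 to 0.23), and none of the 6 passed the test. Ndufs8, an iron-sulphur subunit, gave signals of 3614, 5415 and 5504 in control replicates 1 to 3 and 4221, 6484 and 6808 with NCOR1-LYN, a log2 fold change of 0.26 ± 0.24 (SE, limma adjusted p = 0.999). The NCOR1-LYN array was the higher one in each same-numbered pair, by 0.22, 0.26 and 0.30, but the groups overlapped because replicate 1 was low in both. With both replicate 1 arrays left out, its log2 fold change was 0.28 and passed the test (limma adjusted p = 0.0223). Far more genes of the whole array passed under that setting too, as counted at the end. Ndufv2, another iron-sulphur subunit, had signals of 5487, 8821 and 8932 in controls and 8085, 9072 and 9409 with NCOR1-LYN, a log2 fold change of 0.22 ± 0.20. Most of that difference lay in pair 1, at 0.55, against 0.04 and 0.07 in pairs 2 and 3.

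The 28 tested accessory subunits of complex I, which surround the core and serve its assembly and stability, had a median log2 fold change of 0.05 (-0.09 to 0.20 with single arrays left out). The subunit farthest from the others was Ndufb1, a small accessory subunit of the membrane arm. Its signals were 1760, 1291 and 1373 in controls (1475 ± 251, SD, n = 3) and 837, 841 and 937 with NCOR1-LYN (872 ± 56.8, SD, n = 3). All 3 NCOR1-LYN arrays lay below all 3 control arrays, and the log2 fold change was -0.71 ± 0.15 (SE). The unadjusted limma p was 0.0020, the adjusted p was 0.329, and the adjusted p with the replicate block was 0.0732, so Ndufb1 did not pass the test. It passed when arrays were weighted by their quality (log2 fold change -0.55, limma adjusted p = 0.00745) and when both replicate 1 arrays were left out (-0.55, limma adjusted p = 0.00404). Under both settings far more genes of the whole array passed as well, as counted at the end, so these passes are not particular to Ndufb1. A single probe set represents Ndufb1, so that no second measurement was at hand.

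Among the other accessory subunits, Ndufb6 gave signals of 2986, 6910 and 7438 in controls and 3990, 8096 and 8004 with NCOR1-LYN, with a log2 fold change of 0.25 ± 0.41. Ndufb10 was at 2338, 3352 and 3555 against 2529, 4224 and 4222, with a log2 fold change of 0.23 ± 0.25. In both genes replicate 1 was the lowest array of each group, and NCOR1-LYN was the higher array of each pair. Ndufb10 passed the test with both replicate 1 arrays left out (0.29, limma adjusted p = 0.0239), a setting under which far more genes of the whole array passed. Ndufv3, a small subunit of the NADH-oxidising module, was at 4455, 7135 and 6867 in controls and 2724, 7185 and 7134 with NCOR1-LYN. Its value of -0.21 ± 0.39 rested on pair 1 alone, which gave -0.70, while pairs 2 and 3 gave 0.01 and 0.05. Ndufa13, at 5948, 6079 and 5777 against 5310, 5742 and 5772, was lower with NCOR1-LYN without overlap, by a log2 fold change of only -0.08 ± 0.10.

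The 8 assembly factors, which build complex I and are not part of it, had a median log2 fold change of 0.05 (-0.03 to 0.16 with single arrays left out). The highest values were those of Ndufaf4 (0.24 ± 0.18) and Ndufaf6 (0.12 ± 0.16). The lowest were those of Ndufaf1 (-0.19 ± 0.19) and Ndufaf5 (-0.01 ± 0.21). Ndufaf1 read 1871 in control replicate 1 and between 1153 and 1336 in the other 5 arrays, so its negative value came from that array.

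Complex II, the 4 succinate dehydrogenase subunits, had a median of -0.03, which became 0.09 without NCOR1-LYN replicate 1. Sdha, the flavoprotein, gave signals of 5399, 5727 and 5611 in controls and 5460, 6083 and 6827 with NCOR1-LYN, a log2 fold change of 0.13 ± 0.12. Sdhb, the iron-sulphur subunit, was at 7497, 7458 and 7257 against 6452, 7055 and 6609, a log2 fold change of -0.14 ± 0.10. The NCOR1-LYN arrays all lay below the controls for Sdhb, and the groups overlapped for Sdha. Of the 2 membrane anchors, Sdhc gave 3683, 3558 and 3558 in controls and 2989, 3844 and 4262 with NCOR1-LYN (0.02 ± 0.15). Sdhd gave 4873, 4872 and 4798 against 4049, 4935 and 4818 (-0.08 ± 0.12). For Sdhc and Sdhd the 3 controls lay close together, and NCOR1-LYN replicate 1 was the lowest of the 6 arrays.

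Complex III had a median of 0.03 over 8 genes. Uqcrq, a small subunit next to cytochrome b, gave signals of 3696, 7281 and 7092 in controls (6023 ± 2017, SD, n = 3) and 7290, 7989 and 8563 with NCOR1-LYN (7948 ± 637, SD, n = 3). The groups did not overlap, although control 2 and NCOR1-LYN 1 were nearly equal. The log2 fold change was 0.46 ± 0.26 (SE, limma adjusted p = 0.999), and the pairs gave 0.97, 0.13 and 0.27, so the low control replicate 1 set most of the value. Uqcrh, the hinge protein that binds cytochrome c1, had the lowest value of the complex at -0.24 ± 0.14, with 13736, 11048 and 10398 in controls and 9329, 9629 and 10700 with NCOR1-LYN. The core proteins Uqcrc1 and Uqcrc2 were at 0.07 ± 0.11 and 0.07 ± 0.13, the Rieske protein Uqcrfs1 at 0.05 ± 0.23, Uqcr10 at -0.02 ± 0.17, and Uqcrb and Uqcr11 within 0.01 of 0.

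Complex IV had a median of 0.04 over 13 tested genes. Several of its subunits exist as isoforms from separate genes, one widespread and the other known from heart, muscle, lung or testis. The widespread Cox4i1 gave 16049, 16982 and 16047 in controls and 17766, 15699 and 17450 with NCOR1-LYN (0.05 ± 0.11). Its counterpart Cox4i2, described in lung and under low oxygen, gave 81.9, 53.3 and 74.0 in controls and 86.0, 77.6 and 144 with NCOR1-LYN (0.30 ± 0.20), dim in every array. Cox6a1 was at 0.03 ± 0.11, Cox6b1 at -0.06 ± 0.18, Cox7a2 at 0.00 ± 0.23, and Cox8a at -0.03 ± 0.11. Of their tissue-restricted counterparts, Cox6b2, Cox7a1, Cox7b2 and Cox8b lay below the limit for low signals with no array above 75.6, and Cox8c gave 119 to 273 (0.11 ± 0.25).

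Cox6a2, the heart and muscle isoform of subunit VIa, was the exception. Its signals were 585, 236 and 218 in controls and 2783, 222 and 104 with NCOR1-LYN. It was highest in replicate 1 of each group, and the NCOR1-LYN replicate 1 array alone was far above the others. The 3 pairs gave 2.13, -0.07 and -0.75, so the log2 fold change of 0.44 ± 0.98 describes 1 array rather than the group. A second probe set for Cox6a2 gave 133, 55.0 and 38.7 in controls and 839, 40.8 and 10.0 with NCOR1-LYN, the same order of arrays. The summed signal of 7 muscle and heart markers, of which Myh6, Myh7 and Tnnt2 lay below the limit for low signals, was 6837, 4742 and 4370 in controls and 6229, 3810 and 4294 with NCOR1-LYN. Nearly all of it was Ckm (6365, 4409 and 3951 against 5832, 3486 and 3870), and Des was also highest in replicate 1 of each group. Acta1 was lowest there (98.1, 98.4 and 174 against 82.4, 113 and 142), and Myod1 was highest in other arrays. The sum was thus highest in replicate 1 of each group, as for Cox6a2, but not every gene of the list was. The summed signal of 5 erythroid markers was 9359, 5075 and 4729 against 7559, 5549 and 6686. The part of Ckm, Des and the erythroid markers in the Cox6a2 result was not tested.

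**Figure D2:**
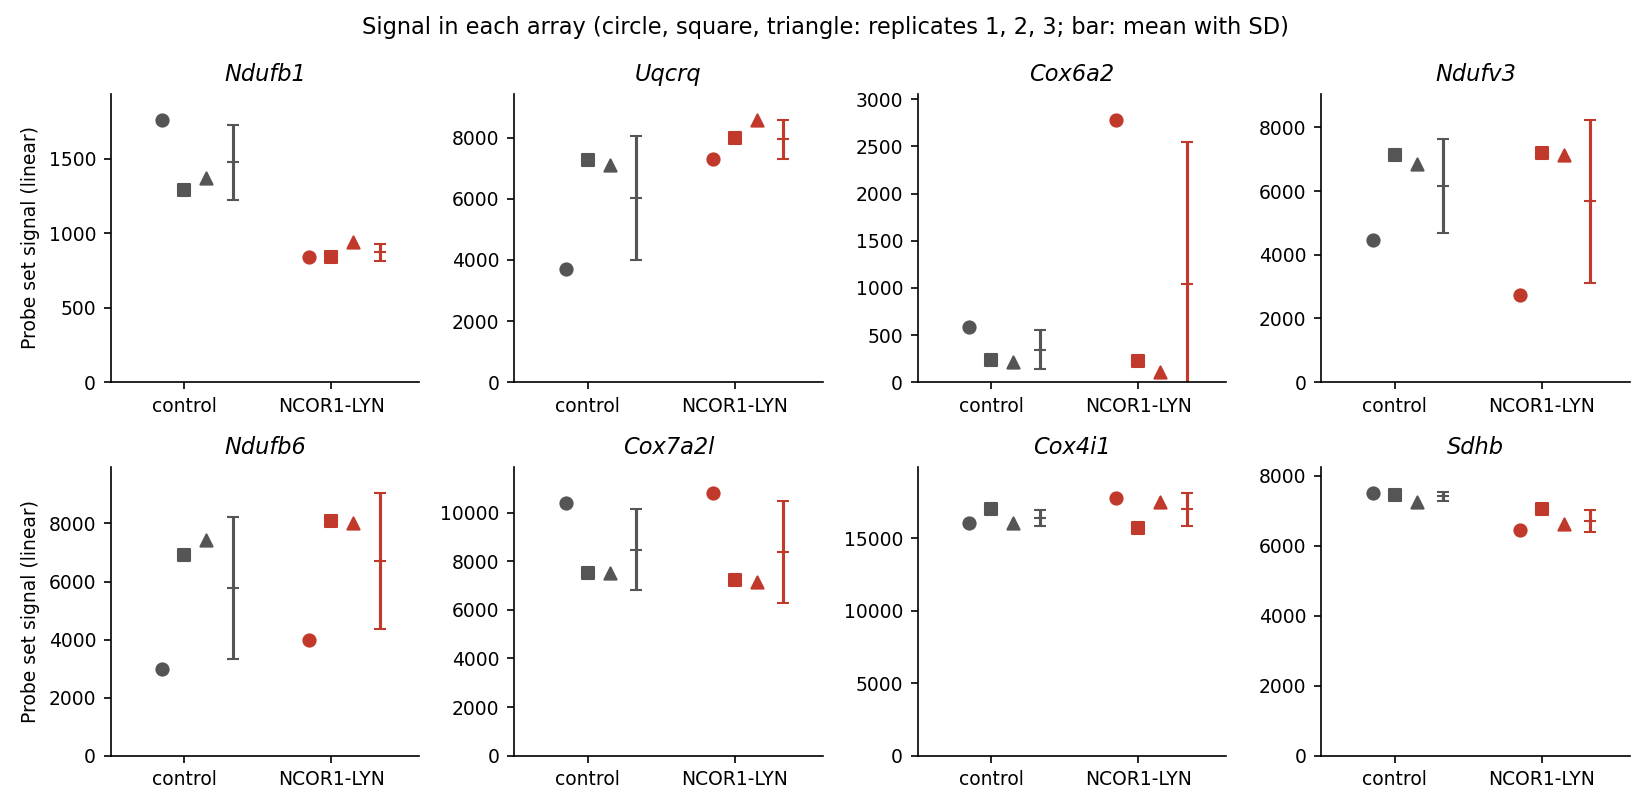
Linear probe set signal (vertical axis, arbitrary units, from 0) of 8 genes in each array, with controls in grey and NCOR1-LYN in red. Circles, squares and triangles are replicates 1, 2 and 3, and the bars give mean and SD of 3 arrays: all 3 NCOR1-LYN arrays of Ndufb1 lie below the controls, 1 array carries Cox6a2, and replicate 1 lies low in Ndufb6 and Ndufv3 and high in Cox7a2l.

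ATP synthase had a median of 0.03 over 17 genes, between -0.09 ± 0.12 for Atp5a1, the catalytic head's alpha subunit, and 0.17 ± 0.16 for Atp5g1. The membrane rotor is a ring of subunit c, which 3 genes encode with the same mature protein. Atp5g1 gave 5581, 7008 and 6337 in controls and 8451, 6115 and 6784 with NCOR1-LYN. Atp5g2 gave 9607, 10318 and 9978 against 11389, 10085 and 10139 (0.08 ± 0.11), and Atp5g3 gave 13683, 18106 and 17508 against 12965, 17118 and 19076 (-0.01 ± 0.18). For Atp5g1 and Atp5g2, NCOR1-LYN replicate 1 was the highest array, whereas for Atp5g3 replicate 1 was the lowest array of both groups. Atp5b, the beta subunit, was at 0.10 ± 0.13 and higher in each NCOR1-LYN array than in the control of the same number. Atp5o, the stalk subunit known as OSCP, was at 0.15 ± 0.14 and likewise higher in each pair, and Atp5mpl was at -0.07 ± 0.19.

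Genes that act beside the subunits did not pass the test either. Of 23 tested regulators of mitochondrial transcription and biogenesis, 34 assembly factors outside the name rule, 16 electron carriers and further subunits, and 19 genes of the tricarboxylic acid cycle and pyruvate dehydrogenase, 0 passed in limma with or without the replicate block. Unadjusted limma p values under 0.05 numbered 0 in each of these lists without the block (4.75% of all genes), and 0, 3, 0 and 2 with it (11.3% of all genes). The largest values were those of the transcription termination family members Mterf2 (-0.32 ± 0.18) and Mterf4 (-0.26 ± 0.19), the copper chaperone Sco2 (-0.46 ± 0.40), the complex III assembly factor Uqcc3 (-0.29 ± 0.22), cytochrome c, Cycs (0.30 ± 0.36), the electron transfer flavoprotein subunit Etfb (0.24 ± 0.17), the pyruvate dehydrogenase component Pdhx (0.33 ± 0.23) and isocitrate dehydrogenase Idh2 (0.25 ± 0.24). ND5, a complex I subunit encoded by mitochondrial DNA and the 1 such gene with a usable probe set, gave 11650, 8042 and 8680 in controls and 12213, 12283 and 9274 with NCOR1-LYN (0.26 ± 0.18).

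More of the genes passed a test on the replicate number. In an F test on the replicate number, with the group in the model, 23 of the 84 genes passed (limma, adjusted p of 0.05), where 13% of all genes did. In 21 of these replicate 1 was lower than the mean of replicates 2 and 3 (5.79% of all genes), and in 2 it was higher (7.25% of all genes). Replicate 1 was lower in 67 of the 84 genes, passing or not, against 45.5% of all genes. It was the lowest array of both groups in 52 genes (25.7% of all genes) and the highest of both in 5 (32.6% of all genes), Cox6a2, Cox7a2l, Cox7c, Ndufa10 and Ndufa6. Most of the genes are bright, and bright genes as a class leaned the same way. Of 1030 other genes with a mean signal above 4146, 16.8% passed as lower in replicate 1, 65.8% were lower in it and 48.3% had it lowest in both groups, against 25, 79.8 and 61.9% of the 84 genes. The difference between these shares was not tested.

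The median difference of replicate 1 from the mean of replicates 2 and 3 was -0.29 on the log2 scale, a signal difference of -18.2%. Within controls it was -0.32 and within NCOR1-LYN arrays -0.25, so that both groups showed it. Over all genes tested the median difference was 0.04. Over the 1030 other bright genes it was -0.15. The median signal of the 84 genes per array was 5534, 7073 and 6811 in controls and 6096, 7030 and 7148 with NCOR1-LYN. The 3′/5′ signal ratio of Actb control probe sets, a sign of RNA integrity, was 1.17, 1.23 and 1.24 in controls and 1.15, 1.19 and 1.23 with NCOR1-LYN. That of Gapdh was 0.685, 0.703 and 0.742 against 0.681, 0.740 and 0.713. Both ratios were lowest in replicate 1 of each group, and their part in the replicate 1 difference was not tested.

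**Figure D3:**
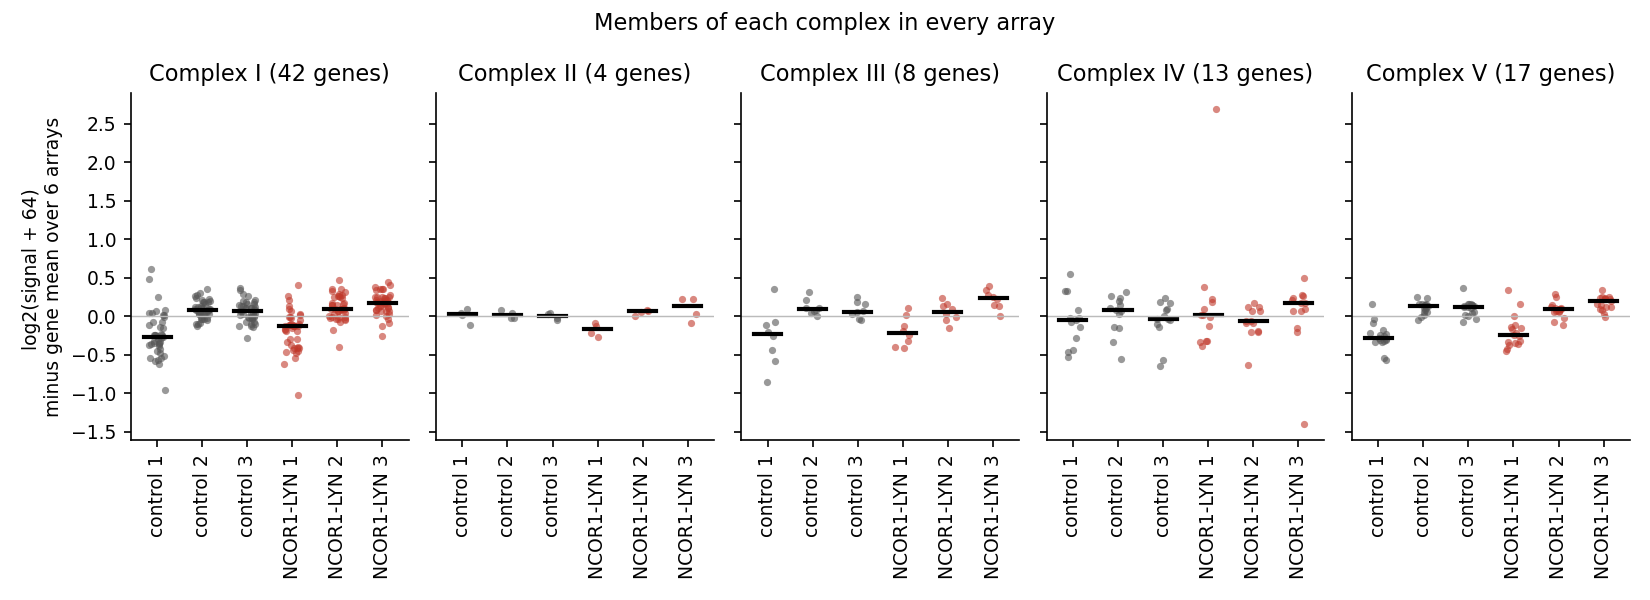
Log2(signal + 64) of each tested gene minus its own mean over the 6 arrays (vertical axis), by complex and array, with controls in grey and NCOR1-LYN in red. Points are genes and bars are medians: in complexes I, III and V replicate 1 of both groups lies below the other arrays, with control 1 medians of -0.27, -0.23 and -0.29, while in complex IV the control 1 median is -0.05 and Cox6a2 reaches far above the rest in NCOR1-LYN 1. The complex IV panel includes the dim Cox4i2, Cox7c and Cox8c.

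The complexes differed in size and spread on this axis. Complex V had a median difference of -0.43 (14 of 17 genes lower in replicate 1, 5 passing), complex III -0.39 (7 of 8 lower, 2 passing), complex I -0.29 (35 of 42 lower, 11 passing as lower), complex II -0.14 (4 of 4 lower, 0 passing) and complex IV -0.03 (7 of 13 lower, 3 passing as lower and 2 as higher). In complex II the difference lay in the NCOR1-LYN arrays, with a median of -0.25 there and 0.02 within controls. Replicate 1 was the lowest array of both groups for only 1 of its 4 genes, Sdha. The complex IV median was raised by the dim Cox4i2, Cox8c and Cox7c (0.00, 0.19 and 0.41) and by Cox6a2 (2.43). Among its bright genes, Cox5a, Cox6c, Cox7a2, Cox6b1 and Cox5b lay between -0.65 and -0.31. Cox4i1, Cox6a1 and Cox8a lay between -0.04 and 0.03, and Cox7a2l was at 0.52. Differences between complexes were not tested. Within complex I the medians were -0.25 for core subunits, -0.36 for accessory subunits and -0.19 for assembly factors. Of the 11 complex I genes that passed, 10 were accessory subunits and 1, Ndufs8, was a core subunit.

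The 3 lowest differences were all in complex I. Ndufb6, an accessory subunit of the membrane arm whose array values stand above, differed by -54.1% in replicate 1 (log2 difference -1.12, limma F test, adjusted p = 0.00742). Ndufv3 differed by -50.3% (-1.01, adjusted p = 0.0253 in the same limma F test). Ndufb2, with signals of 2348, 4444 and 4745 in controls and 2351, 4390 and 4659 with NCOR1-LYN, differed by -47.8% (-0.94, adjusted p = 0.00742 in limma). For Ndufb2 the same-numbered arrays differed by less than 0.03 on the log2 scale in every pair, while replicate 1 lay apart from the others. The other passing genes that were lower in replicate 1 were Ndufc1, Ndufa5, Ndufb8, Ndufb10, Ndufs8, Ndufc2, Ndufa1 and Ndufa4 of complex I by name (-0.78 to -0.58), Uqcrb and the Rieske protein gene Uqcrfs1 of complex III (-0.74 and -0.58), Cox5a, Cox6c and Cox7a2 of complex IV (-0.65, -0.59 and -0.57), and Atp5h, Atp5md, Atp5j, Atp5k and Atp5pb of complex V (-0.76 to -0.43). Ndufa4 carries a complex I name and is known as a subunit of complex IV.

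Both genes that passed as higher in replicate 1 were of complex IV. Cox7a2l, which encodes a factor that joins complex III and complex IV into supercomplexes, gave 10402, 7515 and 7533 in controls and 10800, 7210 and 7161 with NCOR1-LYN. Replicate 1 was the highest array of each group, 43.8% above replicates 2 and 3 (log2 difference 0.52, limma F test, adjusted p = 0.0299). Both other probe sets of Cox7a2l were higher in replicate 1 as well, at 0.31 and 0.49. Its relative Cox7a2 went down in the same arrays, from 22637, 21396, 20523 and 21904 in replicates 2 and 3 to 13942 and 15050 in replicate 1. Cox6a2 was at 2.43 (adjusted p = 0.0496 in limma), with the single high array described above. A further 15 genes lay above 0 without passing, 7 of them in complex I, 4 in complex IV, 3 in complex V and 1 in complex III.

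**Figure D4:**
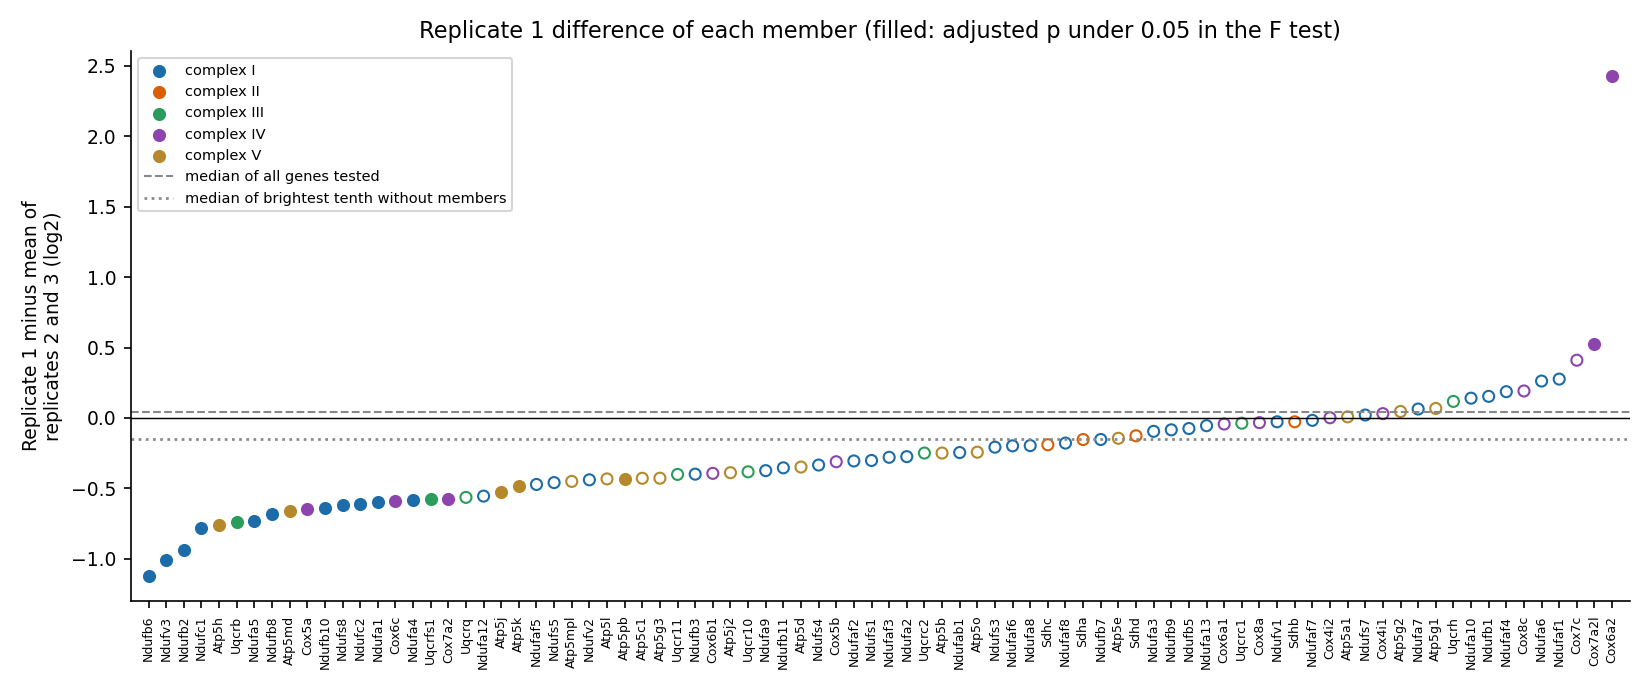
Difference of replicate 1 from the mean of replicates 2 and 3, averaged over both groups (vertical axis, log2), for the 84 tested genes in order of that difference (horizontal axis), coloured by complex. Filled points passed the F test on the replicate number (adjusted p under 0.05), 21 of them below 0 and 2 above; the dashed line is the median of all genes tested (0.04) and the dotted line that of other genes with a mean signal above 4146 (-0.15).

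The change with NCOR1-LYN was also compared between pairs. For 13 of the 84 genes the change in pair 1 differed from the mean of pairs 2 and 3 (limma interaction term, adjusted p of 0.05), against 16.1% of all genes, a share close to that of the array. It was lower in pair 1 for 7 genes (9.22% of all genes), among them Ndufv3, and higher for 6 (6.89% of all genes), among them Uqcrq and Cox6a2.

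The size of the difference of replicate 1 depended on the probe set. Of 50 genes with another probe set above the limit for low signals, 39 had the same direction in both, with medians of -0.28 for the brightest and -0.33 for the second. Among the 14 passing genes that were lower in replicate 1 and had such a second probe set, 13 were lower in it too, and in 10 the second difference was the smaller in size. For Ndufb6 the second probe set gave 4232, 5601 and 5702 in controls and 5441, 6193 and 6372 with NCOR1-LYN, a difference of -0.31 instead of -1.12. Uqcrb moved the opposite way, from -0.74 to -1.26. Ndufb8 changed direction, from -0.68 to 0.12, with a second probe set of 129 to 166 signal units. Probe sets whose identifier carries the suffix s, x or a may match several transcripts or near-identical copies. The 45 genes represented by one had a median of -0.35, of which 15 passed as lower, and the 39 genes with a plain probe set had a median of -0.20, of which 6 passed. Over all genes the corresponding medians were -0.01 and 0.06, and 9.8% and 4.36% passed as lower, against 33.3% and 15.4% of these genes.

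The lists of other mitochondrial genes differed in how they varied with replicate 1, and 5.79% of all genes passed as lower and 7.25% as higher. The tricarboxylic acid cycle and pyruvate dehydrogenase list had a median difference of -0.50, with 18 of 19 genes lower and 9 passing as lower (47.4%), among them Pdk1 (-1.32), a kinase that restrains pyruvate dehydrogenase, and citrate synthase, Cs (-0.55). The electron carriers and further subunits had a median of -0.15, with Cycs (-0.94), the ATP synthase inhibitor Atpif1 (-0.91) and the ubiquinone synthesis gene Coq7 (-0.65) passing as lower (3 of 16, 18.8%). The assembly factors outside the name rule had a median of -0.16, with 4 passing as lower (Cox15, Cox11, Nubpl and Cox17) and Sco2 as higher (1.06), 5 of 34 in all (14.7%), near the 13% of all genes. The regulators were divided around a median of -0.03, 12 below and 11 above 0. Among them Slirp (-0.82), an RNA-binding protein of mitochondrial mRNA, the mitochondrial DNA-packaging factor Tfam (-0.47) and Yy1 (-0.45) passed as lower, whereas the coactivators Ppargc1b (0.87) and Pprc1 (0.59) and Mterf1a (0.61) passed as higher. ND5 was at 0.33 and did not pass.

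Promoter sequences are shown because many of the genes shifted together in replicate 1 and because the nuclear subunit genes are known for promoters with sites of NRF1, ETS factors (among them GABP) and YY1. RefSeq windows (GRCm38.p6) from 250 bases before to 50 after the gene start were found for 74 of the 90 genes, and for 17491 protein-coding genes. The letters CGCATGC for the NRF1 core, CCGGAAG for ETS and AAGATGG for YY1 were searched on both strands, and no match to one of them overlapped a match to another. The capitals below mark these letters or their complement, read on the gene's strand. Each printed window runs 5′ to 3′ from 250 bases before the gene start into the first 30 bases of the gene, and all 6 lie on the minus strand. Ndufb6 (chr4:40279392-40279671), Ndufc1 (chr3:51408926-51409205) and Atp5k (chr5:108434370-108434649) passed as lower in replicate 1. Cox6a1 (chr5:115348929-115349208) did not pass, Cox7a2l (chr17:83514304-83514583) passed as higher, and Ndufb1 (chr12:101975709-101975988) had the lowest value with NCOR1-LYN.
Ndufb6: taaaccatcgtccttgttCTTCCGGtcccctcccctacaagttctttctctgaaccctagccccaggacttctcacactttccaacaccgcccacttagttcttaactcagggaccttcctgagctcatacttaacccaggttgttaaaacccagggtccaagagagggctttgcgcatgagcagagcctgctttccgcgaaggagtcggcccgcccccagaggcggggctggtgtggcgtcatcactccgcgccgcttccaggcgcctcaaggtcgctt
Ndufc1: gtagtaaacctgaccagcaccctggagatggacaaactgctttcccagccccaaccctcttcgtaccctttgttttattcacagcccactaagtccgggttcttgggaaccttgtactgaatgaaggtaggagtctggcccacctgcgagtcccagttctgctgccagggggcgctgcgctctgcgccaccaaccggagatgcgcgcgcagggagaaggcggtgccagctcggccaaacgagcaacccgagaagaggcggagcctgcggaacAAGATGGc
Atp5k: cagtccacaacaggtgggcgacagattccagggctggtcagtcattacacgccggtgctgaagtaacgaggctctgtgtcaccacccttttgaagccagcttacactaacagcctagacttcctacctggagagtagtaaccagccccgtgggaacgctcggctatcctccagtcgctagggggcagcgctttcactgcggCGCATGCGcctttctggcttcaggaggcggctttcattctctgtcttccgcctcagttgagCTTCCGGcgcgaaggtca
Cox6a1: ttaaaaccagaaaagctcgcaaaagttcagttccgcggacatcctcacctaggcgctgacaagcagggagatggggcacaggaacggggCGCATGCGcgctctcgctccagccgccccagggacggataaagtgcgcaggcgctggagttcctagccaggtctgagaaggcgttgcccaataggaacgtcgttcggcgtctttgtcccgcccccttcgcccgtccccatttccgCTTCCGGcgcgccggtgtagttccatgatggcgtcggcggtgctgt
Cox7a2l: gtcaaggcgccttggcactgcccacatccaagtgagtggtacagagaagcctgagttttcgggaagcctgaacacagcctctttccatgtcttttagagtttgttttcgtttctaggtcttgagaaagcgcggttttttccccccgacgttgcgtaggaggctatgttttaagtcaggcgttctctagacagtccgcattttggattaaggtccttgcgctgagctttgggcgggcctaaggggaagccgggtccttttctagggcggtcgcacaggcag
Ndufb1: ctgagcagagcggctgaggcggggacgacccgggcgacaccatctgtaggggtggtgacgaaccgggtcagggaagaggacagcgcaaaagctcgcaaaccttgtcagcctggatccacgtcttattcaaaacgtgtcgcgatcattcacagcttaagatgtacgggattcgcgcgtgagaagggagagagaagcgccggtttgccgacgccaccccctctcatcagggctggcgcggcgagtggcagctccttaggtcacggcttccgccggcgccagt
Atp5k and Cox6a1 each hold CGCATGC, which there overlaps its own complement, and the complement of CCGGAAG, Ndufb6 holds the latter alone, and Ndufc1 holds AAGATGG. Cox7a2l and Ndufb1 hold none of these letters in the printed window.

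Over the 74 windows, the NRF1 letters CGCATGC were found in 11 (14.9%), against 4.5% of protein-coding genes. The ETS letters CCGGAAG were found in 18 (24.3%), against 11.9%, and the YY1 letters AAGATGG in 10 (13.5%), against 6.4%. Of the SP1 letters GGGCGG, the E-box CACGTG and the TATA letters TATAAA, the shares were 47.3, 8.1 and 10.8%, against 46.3, 7.9 and 13.3%. 1 match to GGGCGG overlapped a match to one of the first 3 motifs. The AAGATGG matches of these genes all started between 2 bases before and 38 bases after the gene start, 10 of 10. Of the 1171 matches in protein-coding genes, 34.8% started at 2 bases before the gene start or later. That bound was taken from the matches of these genes themselves, so 10 of 10 was fixed in advance and the difference is no test of position. Among the 19 genes with a window that passed as lower in replicate 1, 1 held the NRF1, 5 the ETS and 3 the YY1 letters (5.3, 26.3 and 15.8%). Among the 50 other tested genes with a window, 10, 13 and 7 did (20, 26 and 14%). A match is a description of these letters in this window and not evidence of binding.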

How the data were processed

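The deposited table holds linear intensities, 1 per probe set, from the authors' MAS5 run, as the submitters' processing notes name it. Its version is not given in the sources used here. In the values, each array has a mean of 500 once 2% of probe sets are trimmed off at each end. MAS5 subtracts background and mismatch signal, which makes dim probe sets noisy. From these intensities log2(signal + 64) was computed with no further scaling. Of 45101 probe sets, the 34945 with exactly 1 gene symbol in the platform annotation, control probe sets left out, were used. All 90 symbols matched RefSeq genes of GRCm38.p6. Each gene took its brightest probe set, and 10916 genes at or above the 40th percentile of mean log2 signal (a signal of 47.0) were tested.

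Tests were limma 3.58.1 in R 4.3.3 (lmFit, eBayes with trend, two-sided, Benjamini-Hochberg over the 10916 genes, adjusted p of 0.05) on all 6 arrays, tested on simulated data beforehand. There the fit without the block found 31% of 2-fold and 83.3% of 4-fold changes. The F test on the replicate number found 13.4% and 64.2%. Smaller changes were found more rarely, so a gene that did not pass may still have changed. The simulated data held 200 changed genes, whereas 1423 genes passed the F test on the real arrays. The adjustment therefore differs, and the simulated shares need not hold for the F test here. The number of arrays limits the precision: residual degrees of freedom were 4 without the block, 2 for the replicate number, and 1 for the test of pair 1 against pairs 2 and 3, whose spread is therefore nearly all borrowed from other genes. Arrays of the same number correlated in their deviations from the group means (0.618, 0.411 and 0.439 over genes, which are not independent), above the limit of 0.1, and were taken as paired. Control 2 with NCOR1-LYN 3 (0.396) and control 3 with NCOR1-LYN 2 (0.485) did so too, so replicates 2 and 3 were not told apart. A shift of replicate 1 shared by both groups raises all of these values, so they show no pairing within replicates 2 and 3. Pairs 2 and 3 are therefore pairs by number only. For a single gene, the smallest exact permutation p of 3 against 3 arrays is 0.1.

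Alternatives were the offset, the filter, quantile or median scaling, other probe sets, array weights, the replicate block and left-out arrays. Named genes were all Sdh genes, the 2 highest and 2 lowest changes of each class, the 3 most extreme replicate 1 and pair 1 differences on each side, isoform sets, and for other lists the passing genes or the 2 largest changes. The genes, lists and tests were chosen with earlier results of these data known, and genes named for passing the replicate number test, for not overlapping or for an unadjusted p were named after their values were seen. The NRF1 letters searched in promoters were shortened after the counts of a longer form had been seen.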

Additional observations from a re-analysis of the deposited data

Results flagged for a closer look

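The change with NCOR1-LYN differed between same-numbered pairs for 13 of the 84 genes, by an interaction term that compares pair 1 with the mean of pairs 2 and 3 (limma, adjusted p of 0.05), where 1759 of all genes (16.1%) differed. The share is close to that of the array as a whole. In 7 genes the change in pair 1 was the lower one (9.22% of all genes) and in 6 the higher one (6.89%). Lower in pair 1 were the complex I genes Ndufv3 (-0.729 on the log2 scale), Ndufaf3 (-0.676), Ndufaf1 (-0.63) and Ndufb1 (-0.467), the complex II gene Sdhc (-0.479), and the complex III genes Uqcrh (-0.477) and Uqcr11 (-0.441). Higher in pair 1 were the complex I genes Ndufb7 (0.388), Ndufaf4 (0.472) and Ndufv2 (0.497), the subunit c gene Atp5g1 (0.642), the complex III gene Uqcrq (0.767) and the complex IV gene Cox6a2 (2.54). Ndufb1 was lower with NCOR1-LYN in all 3 pairs, by more in pair 1. With replicates 2 and 3 not told apart, a setting chosen after seeing the data, 9 of the 13 genes passed, 5 lower and 4 higher. The share over all genes under that setting is not given here, so the 9 genes cannot be set against the array as a whole.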

How the results depend on the processing

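Without a replicate block and with the replicate block, 0 genes passed for NCOR1-LYN. With array weights 1 passed (Ndufb1), and 3 with both replicate 1 arrays left out (Ndufb1, Ndufs8 and Ndufb10). Over all genes, the 9 calls became 1 with no filter or the 60th percentile filter, 90 with the block, 497 with array weights, 740 with both replicate 1 arrays left out, and between 0 and 15 with single arrays left out. The median log2 fold change of 0.04 ran from -0.048 to 0.15 with single arrays left out. For the replicate number, the count of 23 fell to 8 with no filter and was between 17 and 33 under the other settings. The median replicate 1 difference of -0.29 was -0.19 after quantile normalization, -0.41 with array medians set equal, a setting that also lowered the median over all genes from 0.04 to -0.07, and -0.24 with plain-suffix probe sets, where Ndufb8 turned to 0.12. The pair 1 count of 13 became 4 with no filter, 6 with array medians set equal and 7 with the mean of all probe sets. The cause of these shifts was not tested. For the replicate number and pair 1 tests, the counts over all genes under the other settings are not given here. Those counts can therefore not be set against the array as a whole. Of 760 values of single genes with NCOR1-LYN, 684 kept direction and side of the threshold, 72 changed sign without passing and 4 came to pass. Of 184 replicate 1 differences, 147 kept both, 36 no longer passed and 1 reversed. Signals under 64, where fold changes are least certain, made up 50.6 to 52.7% of each array's probe sets.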
